A study of Mus musculus with 8 samples.

Results

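The genes described here encode the CCAAT/enhancer-binding proteins (C/EBPs), transcription factors measured in cartilage cells (primary articular chondrocytes) of mouse joints. Of 6 named family genes, 5 (Cebpa, Cebpb, Cebpd, Cebpe and Cebpg) matched a probe set with 1 gene symbol, and each had 1 such probe set. Cebpz was not analysed here. The 5 stood among 22180 genes tested. The chondrocytes came from the femoral condyles and tibial plateaus of wild-type ICR mice 5 days old and were grown as a monolayer. One group received a null adenovirus as the control (Ad-null, 4 arrays). The other received an adenovirus carrying the zinc transporter ZIP8, the product of Slc39a8 (Ad-Zip8, 4 arrays), so every group carried an adenovirus. RNA was taken 24 h after infection. The labels call the arrays biological replicates and name no animals or pools behind single cultures. The p-values therefore cover the spread among these 8 arrays, which may be technical in part. The comparison asks how raised ZIP8 changes gene expression.

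C/EBPs bind DNA as dimers through a basic region and a leucine zipper, and they pair with each other and with related zipper proteins of the Atf and Ddit3 type. C/EBP beta and C/EBP delta are the inducible members that drive acute-phase and cytokine genes in liver and stromal cells, C/EBP alpha acts in fat, liver and myeloid differentiation, C/EBP epsilon in late granulocytes, and C/EBP gamma, which lacks an activation domain, serves as a partner of the others and of Atf4. In cartilage, C/EBP beta has been described as an activator of matrix-degrading enzyme genes and a repressor of genes of the mature matrix.

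The adenovirus raised its own gene: Slc39a8 went from a mean of 6.20 ± 0.07 to 11.1 ± 0.15 on the log2 scale (SD, n = 4 each). Array medians lay between 5.04 and 5.11. All 14 chondrocyte markers had group means above these medians in both groups, as the label of the cells requires. Over all genes 5.48% rose and 5.12% fell at a limma adjusted p under 0.05, and the median log2 change was -0.02. In whole cultures, a change in the number of cells of a type and a change in RNA per cell cannot be told apart.

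Cebpd and Cebpb, the inducible members, were both higher in every Ad-Zip8 array than in any Ad-null array. Of the 5 genes, 3 rose (Cebpd, Cebpb and Cebpa), against 5.48% of all genes, none fell, against 5.12%, and 2 did not pass the test (Cebpe and Cebpg). With dim genes left out (mean over all 8 arrays below 5.09), the shares of all genes were 10.2% and 11.9%. All 5 genes pass this filter, but Cebpd does so through its Ad-Zip8 values. Its Ad-null mean of 4.93 lay below the cut, so for Cebpd the filter is tied to the change. Groups that did not overlap upward were found for the same 3 genes, against 7.89% of all genes.

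Cebpd, the C/EBP delta gene, had log2 values of 5.00, 4.91, 4.63 and 5.17 on Ad-null arrays 1 to 4 and of 7.61, 7.51, 7.51 and 7.35 on Ad-Zip8 arrays 1 to 4. Its lowest Ad-Zip8 value thus lay far above its highest Ad-null value. The means were 4.93 ± 0.22 and 7.50 ± 0.11 (SD, n = 4 each). The log2 change was 2.57 (SE 0.11, 95% interval 2.31 to 2.83, limma adjusted p = 2.1e-06), which is 5.93-fold. By size of increase it ranked 32 of the 22180 genes, and by p-value 10. The Ad-null mean lay below the array medians, where array values are compressed by background, so the size of this fold change is uncertain. Between arrays of the same replicate number the difference ranged from 2.18 to 2.88.

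Cebpb, the C/EBP beta gene, had log2 values of 7.64, 7.39, 7.46 and 7.60 with Ad-null and of 9.04, 9.03, 8.76 and 8.84 with Ad-Zip8. The groups were again separate, with means of 7.52 ± 0.12 and 8.92 ± 0.14 (SD, n = 4 each). Cebpb rose 2.63-fold, a log2 change of 1.39 (SE 0.09, 95% interval 1.19 to 1.60, limma adjusted p = 1.73e-05). It ranked 122 by size of increase, and its same-numbered differences ran from 1.23 to 1.64. Unlike Cebpd, it lay well above the array medians in both groups.

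Cebpb is a compact gene whose start region is known to hold sites for CREB-type zipper proteins. Its 250 bases upstream of the RefSeq start site (GRCm38.p6, plus strand, chr2:167688665-167688914) are shown because Cebpb is the C/EBP gene with a clear baseline level that rose. Capitals mark TGACG on either strand, the core that CREB and Atf proteins read, a motif added after the sequence had been seen.
Cebpb: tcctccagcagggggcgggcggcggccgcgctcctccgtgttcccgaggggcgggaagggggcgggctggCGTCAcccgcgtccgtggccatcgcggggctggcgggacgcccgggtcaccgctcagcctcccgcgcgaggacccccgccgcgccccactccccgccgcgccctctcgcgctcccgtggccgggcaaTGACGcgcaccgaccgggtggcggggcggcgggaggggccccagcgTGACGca
The stretch holds 3 matches, which begin 180, 53 and 7 bases before the start site, the first on the minus strand. TGACG on either strand was found in 20.8% of the 32851 promoter windows in the RefSeq table, which also reach a little past the start site. Of the 5 family genes 3 had a window there (Cebpa, Cebpb and Cebpg). None of these 3 held TTGCNNAA or TTGCGCAA (C/EBP), TGACGTCA (the full CREB site), TTCNNNGAA (STAT), either NF-kB consensus searched, or TGCACNC or TGCGCNC (metal response element), read on both strands. CCAAT was found in Cebpg alone, with 2 matches, against 37.4% of all windows. A match, or none, in these windows is a description of the letters and says nothing of binding.

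Cebpa, the C/EBP alpha gene, had log2 values of 5.14, 5.18, 5.12 and 5.18 with Ad-null, close together and close to the array medians. With Ad-Zip8 the values were 5.69, 5.88, 5.36 and 5.55, all higher and more widely spread (SD 0.22 against 0.03, n = 4 each). The log2 change was 0.46 (SE 0.11, 95% interval 0.23 to 0.70, limma adjusted p = 0.0201), a 1.38-fold rise. Its size is uncertain at levels so close to the array medians. The call was lost without Ad-null array 1 (adjusted p = 0.0532), Ad-null array 3 (0.0514) or Ad-Zip8 array 1 (0.0618), while the log2 change stayed between 0.38 and 0.55 in all 8 fits with 1 array left out.

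Cebpe, the C/EBP epsilon gene of the granulocyte line, had log2 values of 5.39, 5.78, 5.51 and 5.65 with Ad-null and of 5.47, 5.57, 5.70 and 5.75 with Ad-Zip8, and the groups overlapped fully. Its log2 change was 0.04 (SE 0.10, 95% interval -0.19 to 0.27, limma adjusted p = 0.867). Both means (5.58 with Ad-null and 5.62 with Ad-Zip8) lay only a little above the array medians. The signal may therefore be near background, and the lack of a call does not show an expressed gene that stayed level.

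Cebpg, the C/EBP gamma gene, had log2 values of 8.88, 8.79, 8.67 and 8.75 with Ad-null and of 8.60, 8.66, 8.62 and 8.64 with Ad-Zip8. Every Ad-Zip8 value was the lower, as in 9.74% of all genes, and the difference was small. The log2 change of -0.14 (SE 0.07, 95% interval -0.30 to 0.01) did not pass (limma adjusted p = 0.267). Cebpg is a partner of the other members rather than an activator by itself.

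**Figure D1:**
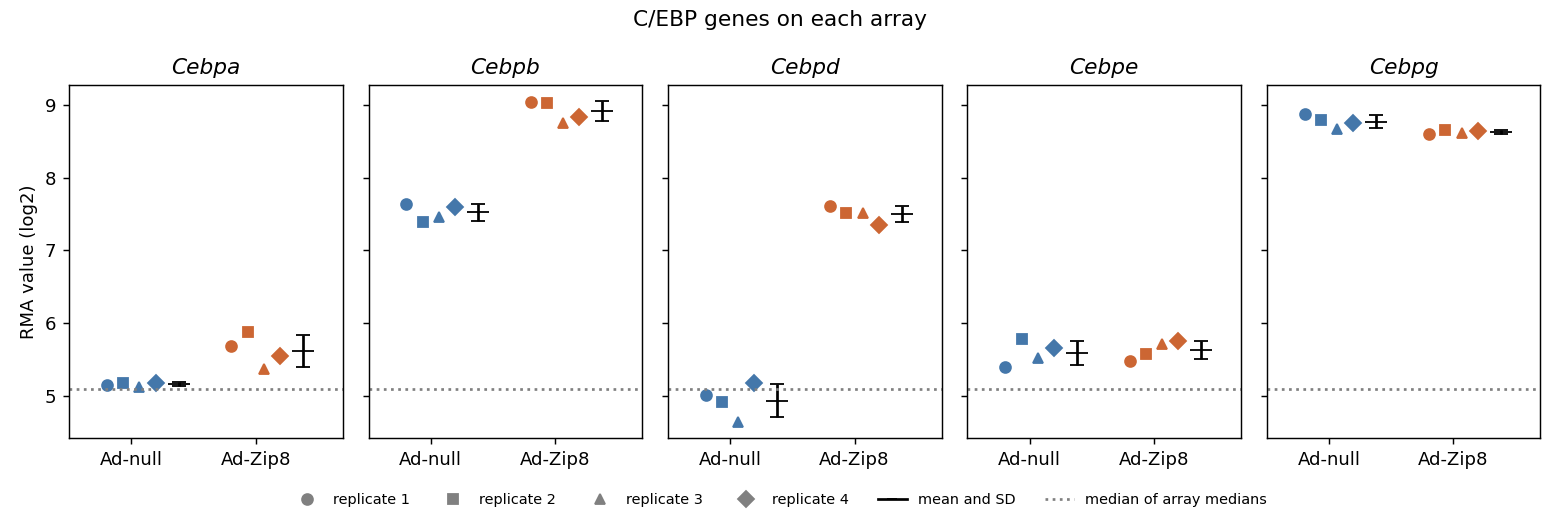
Deposited RMA values (log2, y axis) of the 5 C/EBP genes on each of the 4 Ad-null (blue) and 4 Ad-Zip8 (orange) arrays; marker shapes give the replicate number, bars the mean and SD, and the dotted line the median of the array medians. Cebpb and Cebpd separate widely, Cebpa separates narrowly, Cebpe overlaps, and Cebpg is slightly lower; levels of different genes are not comparable, since each probe set has its own response.

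The family members thus differed in how far they moved, and that difference was tested directly. For each of 10 gene pairs the log2 value of one gene minus that of the other was compared between groups by an exact two-sided permutation test over the 70 splits of the 8 arrays, adjusted over the 10 pairs. In 8 pairs the changes differed with the smallest p these splits can give (exact p = 0.0286, adjusted p = 0.0357). These splits ignore the replicate numbers. With same-numbered arrays as pairs, an exact permutation within the 4 pairs cannot go below p = 0.125, so no gene pair could pass, and in 9 of the 10 gene pairs the difference had 1 sign in all 4 array pairs, Cebpa with Cebpe included. The log2 change of Cebpb minus that of Cebpd was -1.17, and the change of Cebpa minus that of Cebpb was -0.93, each with groups that did not overlap. Cebpb and Cebpg moved apart by 1.54, and Cebpd and Cebpg by 2.71. The 2 pairs that did not pass were Cebpa with Cebpe (0.42, exact permutation p = 0.0571, adjusted p = 0.0635) and Cebpe with Cebpg (0.18, exact permutation p = 0.171). The Ad-null level of Cebpd lay near background and that of Cebpb did not, so the distance between their changes is uncertain in size.

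**Figure D2:**
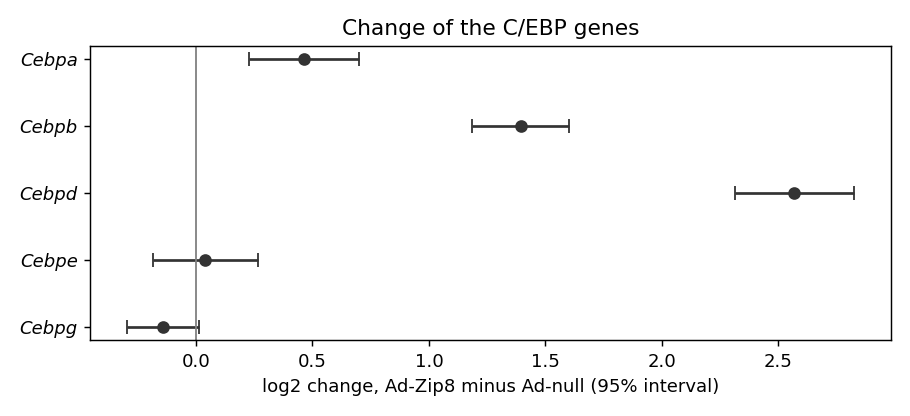
Log2 change of each C/EBP gene, Ad-Zip8 minus Ad-null (x axis), with the 95% interval from the limma fit over 4 arrays a group. The intervals of Cebpa, Cebpb and Cebpd lie above 0 and do not meet each other, whereas those of Cebpe and Cebpg include 0.

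The genes whose values over the 8 arrays were most like those of a C/EBP gene were found by Pearson correlation among 12290 genes. Their mean over the 8 arrays was at least the median of the array medians, and predicted genes, names ending in Rik and small RNAs were left out. Values over the 8 arrays follow the 2 groups, so the correlations mostly restate a difference between them and are a description. Nearest to Cebpd were Lbp (r = 0.999), the lipopolysaccharide-binding protein gene, the chemokine gene Cxcl1 (r = 0.998) and Nfkbiz (r = 0.998), whose product works with NF-kB. Nearest to Cebpb were Rhbdf2 (r = 0.998), the iRhom2 gene needed for release of TNF, the chaperone gene Hspa1b (r = 0.995) and the serum amyloid gene Saa4 (r = 0.994). Lbp rose by 4.45 (SE 0.14), Nfkbiz by 2.36 (SE 0.11), Rhbdf2 by 0.84 (SE 0.08), Hspa1b by 3.23 (SE 0.17) and Saa4 by 3.67 (SE 0.15) on the log2 scale. The Ad-null mean of Saa4 (4.67) lay below the array medians, so the size of its rise is uncertain. Saa4 passed the cut on the mean through its Ad-Zip8 values (mean 8.34), so its place among the neighbours is tied to the change. Hspa1b has a near-identical copy, so its value is uncertain between them. Cebpd had 389 genes with r above 0.95 and Cebpb had 394, so these names are the top of long lists.

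Cebpa had far fewer close neighbours, 16 genes with r above 0.95. Its nearest were Rnf11 (r = 0.973), a RING-finger ubiquitin ligase gene, Fam107b (r = 0.965) and Etv1 (r = 0.964), an ETS transcription factor gene. Within the Ad-Zip8 group Cebpa, Rnf11, Fam107b and Etv1 each had their lowest value on replicate 3. The neighbours were picked by their correlation with Cebpa over these arrays, so a shared low array follows in part from the choice. It is not particular to Cebpa, since Cebpb and Rhbdf2 were also lowest there. Etv1 rose by 0.48 (SE 0.10, limma adjusted p = 0.0137), while the Rnf11 change of 0.28 (SE 0.08) had a limma adjusted p of 0.0529. Rnf11 passed with dim genes left out (0.0197), a variance trend (0.0151), repeated quantile normalization (0.0292) or without Ad-Zip8 array 3 (0.0300). Fam107b rose by 0.51 (SE 0.12, adjusted p = 0.0274) and did not pass without Ad-null array 2, 3 or 4 or Ad-Zip8 array 1 or 2 (limma adjusted p from 0.0642 to 0.0774).

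Among upstream inducers, several cytokine and Toll-like receptor genes rose. Of 24 genes 11 rose, against 5.48% of all genes, none fell, against 5.12%, and 13 did not pass. With dim genes left out these shares were 10.2% and 11.9%. Both sets of shares are the background for the list counts below. The median log2 change was 0.27. Osmr, the oncostatin M receptor gene, had values of 9.97 to 10.1 with Ad-null and of 11.1 to 11.2 with Ad-Zip8, a log2 change of 1.08 (SE 0.06, limma adjusted p = 8.58e-06). Il6st, which encodes the shared signal chain gp130, rose 1.48-fold, and the kinase gene Jak1 1.26-fold. The interleukin 1 receptor gene Il1r1 rose by 1.32 (SE 0.09, adjusted p = 2.71e-05 in limma), and the Toll-like receptor genes Tlr2 and Tlr4 by 1.48 (SE 0.12) and 1.01 (SE 0.10). Tnfrsf1a, the main TNF receptor gene, rose 1.26-fold.

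Stat3, the factor that carries the gp130 signal to the nucleus and to the Cebpd gene, had log2 values of 10.6, 10.5, 10.4 and 10.4 with Ad-null and of 10.9, 10.8, 10.7 and 10.7 with Ad-Zip8. Its rise of 0.30 (SE 0.08, limma adjusted p = 0.0308) passed in the fits without Ad-null array 1 or Ad-Zip8 array 3, and in no other fit with 1 array left out (adjusted p from 0.0562 to 0.0895). Lifr, the leukaemia inhibitory factor receptor gene, rose 1.34-fold (adjusted p = 0.0224) but did not pass without Ad-null array 1 (0.0647) or 2 (0.0647) or Ad-Zip8 array 3 (0.0531) or 4 (0.0631).

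Of the ligand genes, Il6 and Tnf rose, while Osm, Lif, Il11, Il1a, Il1b and Il17a did not pass. Il6 had log2 values of 4.00, 3.83, 4.28 and 3.52 with Ad-null, all below the array medians, and of 6.59, 5.43, 5.65 and 5.63 with Ad-Zip8. Its log2 change was 1.92 (SE 0.25, limma adjusted p = 8.00e-04), with an uncertain size because of the low Ad-null level. Tnf rose by 0.38 (SE 0.10, adjusted p = 0.0356) and held in the fit without Ad-null array 4 alone among those with 1 array left out (limma adjusted p from 0.0503 to 0.0907 in the other 7). The Il17ra change, 0.24 (SE 0.08), had an adjusted p of 0.105 in limma, 0.0457 with dim genes left out and 0.0491 with a variance trend. The genes Egr2, Klf4 and the glucocorticoid receptor gene Nr3c1 did not pass either.

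Of 15 zipper protein genes whose products pair with C/EBPs or share their sites, 3 rose, 2 fell and 10 did not pass. The median log2 change was 0.02. With dim genes left out, 10.2% of all genes rose and 11.9% fell, so these small counts are not read as a result about the list. Batf, a partner of Jun proteins, had log2 values of 5.09, 5.30, 5.11 and 5.44 with Ad-null and of 6.72, 6.64, 6.79 and 6.99 with Ad-Zip8, a rise of 1.55 (SE 0.11, limma adjusted p = 2.02e-05). Nfil3, a repressor that binds C/EBP-like sites, rose by 0.99 (SE 0.10, limma adjusted p = 1.91e-04), and the AP-1 gene Fos by 0.85 (SE 0.13, limma adjusted p = 0.00189). The circadian factor gene Tef fell 1.29-fold (limma adjusted p = 0.00662).

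Atf4, the amino acid stress factor that pairs with C/EBP gamma, had log2 values of 10.7, 10.6, 10.8 and 10.8 with Ad-null and of 10.3, 10.5, 10.5 and 10.5 with Ad-Zip8. It fell by 0.30 (SE 0.07, limma adjusted p = 0.0300), a call kept without Ad-null array 2 or Ad-Zip8 array 3 and lost in the other 6 such fits (adjusted p from 0.0597 to 0.0820), so that the count of partners that fell went to 1 without Ad-null array 1, 3 or 4 or Ad-Zip8 array 1, 2 or 4. Ddit3, the CHOP gene whose product blocks C/EBP binding, changed by -0.31 (SE 0.10), which had an adjusted p of 0.0803 in limma, 0.0354 once dim genes were left out and 0.0229 with a variance trend.

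Calls on genes bound by Atf4 with C/EBP partners went both ways. Of 13, 2 rose, 3 fell and 8 did not pass, and the median log2 change was -0.20. In 5 every Ad-Zip8 value was the lower (9.74% of all genes), and in 2 every one was the higher (7.89%). The summed level on the log2 scale was lower with Ad-Zip8 (13.24 to 13.44) than with Ad-null (13.46 to 13.59). With dim genes left out, 10.2% of all genes rose and 11.9% fell. Chac1, a glutathione-cleaving enzyme gene, fell 1.53-fold (limma adjusted p = 9.73e-04), whereas Slc7a11, the cystine importer gene, rose 1.52-fold (adjusted p = 0.00494) and the mTORC1 inhibitor gene Ddit4 1.47-fold (adjusted p = 0.00461). The lipoprotein receptor gene Vldlr fell 1.27-fold (limma adjusted p = 0.0222; 0.0510 with the replicate block) and did not pass without Ad-null array 1 or 2 or Ad-Zip8 array 1, 2 or 4 (0.0544 to 0.0637). The number that fell was 1 without Ad-null array 1 or 2 or Ad-Zip8 array 1 or 4.

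The Tribbles genes, of which Trib1 encodes a scaffold that brings C/EBP alpha to the COP1 ubiquitin ligase and Trib3 is a stress-induced relative, moved in opposite directions. Trib1 had log2 values of 7.92, 7.88, 7.75 and 7.84 with Ad-null and of 8.47, 8.33, 8.10 and 8.28 with Ad-Zip8, a rise of 0.45 (SE 0.09, limma adjusted p = 0.0101). Trib3 fell by 0.37 (SE 0.09, limma adjusted p = 0.0323), which did not pass with arrays quantile normalized again (0.0552) and, among the fits with 1 array left out, passed without Ad-null array 3 or Ad-Zip8 array 2 (0.0618 to 0.0872 in the other 6).

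Of the 13 measured regulators of C/EBP turnover, translation and activity, Trib1 was the 1 that rose, 2 fell and 10 did not pass. These counts lie near the shares of all genes with dim genes left out (10.2% rose and 11.9% fell). The median log2 change was -0.01. The second that fell was Eif4ebp1, a brake on cap-dependent translation (1.28-fold, limma adjusted p = 0.0179), which did not pass without Ad-null array 1 (0.0534) or 4 (0.0502) or Ad-Zip8 array 1 (0.0516). The count that fell was 0 without Ad-null array 1 or 4 or Ad-Zip8 array 1, and 1 without Ad-null array 2 or Ad-Zip8 array 3 or 4. Trib2, Cop1, Fbxw7, Celf1, Elavl1, Gsk3b, the coactivator genes Ep300 and Crebbp, Smarca2 and Eif4e did not pass.

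Among acute-phase genes that C/EBPs control in liver, 10 of 18 rose, against 5.48% of all genes, none fell and 8 did not pass. The median log2 change was 0.84. Hp, the haptoglobin gene, rose from 5.68 ± 0.25 to 11.1 ± 0.15 (SD, n = 4 each; limma adjusted p = 2.74e-08). Saa2 rose 55.1-fold from a low mean of 3.49, and its signal may be shared with the close copy Saa1, so size and identity are uncertain. Saa3 rose by 4.26 (SE 0.27), reaching 13.5 near the top of the scale, Serpina3n by 2.24 (SE 0.11) and the siderophore-binding gene Lcn2 by 2.37 (SE 0.20). Ptx3, the pentraxin 3 gene, rose 2.46-fold, and Cp, the ceruloplasmin gene, 1.98-fold. The orosomucoid genes Orm1, Orm2 and Orm3 are near-identical, so signals may be shared between them: Orm1 rose 1.62-fold, Orm2 rose 2.34-fold with overlapping groups (limma adjusted p = 0.0389), and the Orm3 change of 0.47 had an adjusted p of 0.0532 (0.0296 without Ad-Zip8 array 1 and 0.0421 without Ad-Zip8 array 2). Ad-null means of Orm2 and Orm3 lay below the array medians. The Orm2 call held without Ad-null array 3 or Ad-Zip8 array 2 and was lost in the other 6 such fits (adjusted p from 0.0855 to 0.112). The liver-made fibrinogen genes Fga, Fgb and Fgg, and Crp, Apcs, Itih4 and Hpx, did not pass.

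Hepatocyte markers, the cells best known for this programme, were low in both groups: of 10 measured, 7 had both means below the array medians, none passed the limma test and 0 had an unadjusted p under 0.05. Their summed level, on the log2 scale, ran from 8.10 to 8.18 with Ad-null and from 8.09 to 8.21 with Ad-Zip8.

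C/EBP-type matches (TTGCNNAA, either strand) were looked for in the RefSeq windows of the acute-phase, inflammatory and cartilage target lists, to show what the listed targets carry near their start sites. Of 48 genes in these lists, 32 had a window, and 13 of those held the motif. The motif was in 10 of 16 acute-phase windows, 2 of 13 inflammatory windows and 1 of 6 cartilage windows, against 10.8% of all windows in the table. The acute-phase genes were listed for C/EBP control, so their share is no independent sign of it. Other lists held the motif too, among them 5 of 14 granulocyte windows, 4 of 10 hepatocyte windows and 4 of 10 windows of fat cell genes. Each of these sequences has 40 bases, 5′ to 3′ on the gene's strand (GRCm38.p6), with the match in capitals.
Saa2, plus strand, chr7:46751634-46751673: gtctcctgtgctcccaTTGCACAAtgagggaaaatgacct
Saa3, minus strand, chr7:46715752-46715791: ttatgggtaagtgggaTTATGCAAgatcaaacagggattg
Lcn2, minus strand, chr2:32387932-32387971: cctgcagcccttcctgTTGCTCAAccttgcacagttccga
Cp, plus strand, chr3:19957163-19957202: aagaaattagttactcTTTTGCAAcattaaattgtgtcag
Ptx3, plus strand, chr3:66219814-66219853: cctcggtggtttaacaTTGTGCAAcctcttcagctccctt
Orm2, plus strand, chr4:63362313-63362352: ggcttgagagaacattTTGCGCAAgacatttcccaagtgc
Hpx, minus strand, chr7:105600293-105600332: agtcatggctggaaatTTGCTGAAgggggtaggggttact
Orm3, plus strand, chr4:63356021-63356060: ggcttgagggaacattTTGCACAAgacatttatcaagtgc
Il6, plus strand, chr5:30012970-30013009: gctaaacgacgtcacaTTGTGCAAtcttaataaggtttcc
Ptgs2, plus strand, chr1:150099946-150099985: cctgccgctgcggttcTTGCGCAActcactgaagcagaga
Mmp3, plus strand, chr9:7445658-7445697: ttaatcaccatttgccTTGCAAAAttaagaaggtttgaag
Fga, plus strand, chr3:83026002-83026041: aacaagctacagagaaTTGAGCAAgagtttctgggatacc
Fgb, minus strand, chr3:83049920-83049959: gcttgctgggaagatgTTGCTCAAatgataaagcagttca
Of the 13 genes with a match 9 rose and 4 did not pass (Orm3, Hpx, Fga and Fgb). Of the 19 with a window and no match, 8 rose, and over all genes 5.48% rose. The genes with a match were 10 acute-phase, 2 inflammatory and 1 cartilage gene. Those without a match include cartilage genes that fell (Ihh, Acan and Col10a1). The counts thus come from unlike mixes of lists, and a link of the motif to the rise was not tested. Orm2 and Ptgs2 carried the full palindrome TTGCGCAA, which 0.183% of all windows hold. The fibrinogen pair Fga and Fgb carried the motif, and their log2 changes were 0.0022 (SE 0.10) and -0.0048 (SE 0.11) from means near 3.7, below the array medians.

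**Figure D3:**
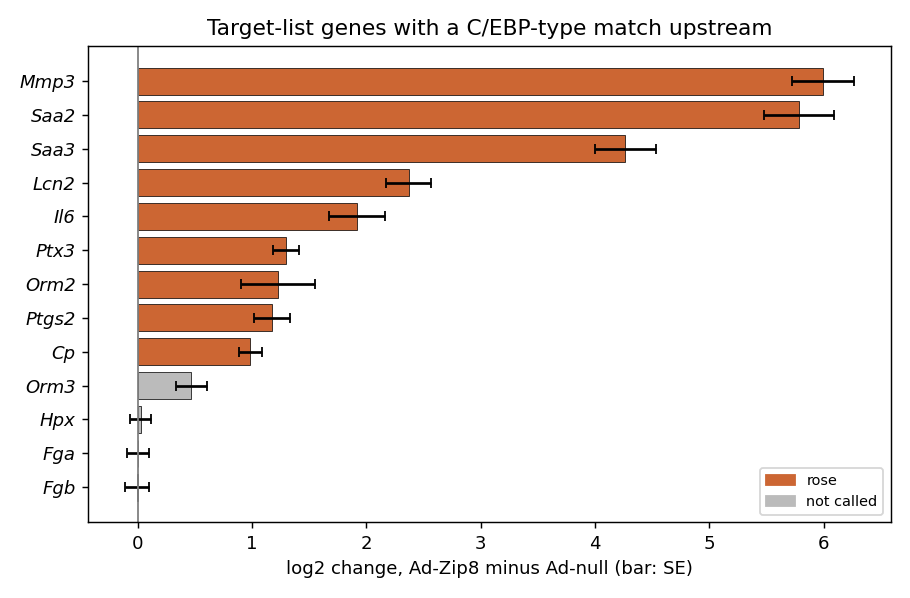
Log2 change, Ad-Zip8 minus Ad-null (x axis, bars with SE), of the 13 acute-phase, inflammatory and cartilage target genes whose upstream window holds a C/EBP-type match; orange bars rose at a limma adjusted p under 0.05 and grey bars did not pass. Mmp3, Saa2 and Saa3 moved by more than 4, and Fga, Fgb and Hpx lie close to 0.

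Of 18 inflammatory genes with described C/EBP control, 13 rose, against 5.48% of all genes, none fell and 5 did not pass. The median log2 change was 1.03. The list shares Il6, Il1b and Tnf with the inducers. The chemokine genes Cxcl5, Ccl2, Cxcl1 and Ccl5 rose by 5.43 (SE 0.16), 4.01 (SE 0.22), 3.81 (SE 0.18) and 3.76 (SE 0.15) on the log2 scale. Nos2, the inducible nitric oxide synthase gene, rose by 2.76 (SE 0.25), the lipopolysaccharide co-receptor gene Cd14 by 1.39 (SE 0.15) and the cyclooxygenase 2 gene Ptgs2 by 1.17 (SE 0.16). The genes Il1b, Csf3, Ccl3, Il12b and Il10 did not pass.

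Chondrocyte genes with described C/EBP beta control went both ways: of 12, 4 rose, 5 fell and 3 did not pass. With dim genes left out, 10.2% of all genes rose and 11.9% fell. The median log2 change was -0.20. Those that rose were Mmp3, Mmp13, Mmp9 and the aggrecanase gene Adamts5, by 5.99 (SE 0.27), 4.41 (SE 0.24), 2.20 (SE 0.19) and 1.52 (SE 0.19). The Ad-null means of Mmp3 (5.38 ± 0.56) and Mmp9 (5.27 ± 0.43, SD, n = 4 each) lay close to the array medians, so the sizes of these 2 rises are uncertain. Mia, the cartilage-derived protein gene that C/EBPs are known to repress, had log2 values of 10.1, 10.1, 10.2 and 10.1 with Ad-null and of 8.92, 9.37, 9.43 and 9.20 with Ad-Zip8. It fell by 0.89 (SE 0.11, limma adjusted p = 6.84e-04).

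Cdkn1c, the p57 cell cycle inhibitor gene that C/EBP beta has been described to activate in growth plate cells, fell by 1.17 (SE 0.12, limma adjusted p = 1.78e-04), with every Ad-Zip8 value between 9.14 and 9.64 and every Ad-null value between 10.4 and 10.8. Col10a1 fell 2.51-fold, the Indian hedgehog gene Ihh 1.52-fold and Acan 1.46-fold. The collagen II gene Col2a1 changed by -0.22 (SE 0.07) with an adjusted p of 0.0790 in limma, which was 0.0285 with dim genes left out and 0.00587 with a variance trend. Adamts4, a second aggrecanase gene, changed by 0.08 (SE 0.12, adjusted p = 0.780 in limma). Sox9, the main chondrocyte regulator gene, changed by -0.19 (SE 0.07; adjusted p = 0.137 in limma, and 0.0207 with a variance trend).

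Of the 14 chondrocyte markers 10 fell, against 5.12% of all genes (11.9% with dim genes left out), and none rose. Among those that fell were Matn1 (2.20-fold), Matn3 (1.95-fold), Col9a3 (1.55-fold) and Hapln1 (1.45-fold). The summed level of the 14 on the log2 scale was 15.93 to 15.98 with Ad-null and 15.32 to 15.57 with Ad-Zip8. This shift moved with the C/EBP rise, and its part in the other changes was not tested.

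Fat cell genes driven by C/EBP alpha and PPAR gamma were mostly not past the test. Of 12, 3 rose, against 5.48% of all genes, none fell, against 5.12%, and 9 did not pass. The median log2 change was -0.01. Fabp4, the fatty acid-binding protein gene, rose 6.87-fold from a low and variable Ad-null mean of 4.12 ± 0.84 (SD, n = 4; limma adjusted p = 8.50e-04), and Dgat2, a triglyceride synthesis gene, 2.08-fold. Adipoq rose by 0.34 with both means below the array medians (3.83 and 4.18). Its limma adjusted p of 0.0443 was 0.0796 with a variance trend and passed without Ad-null array 2 or Ad-Zip8 array 4 but in no other fit with 1 array left out (0.0601 to 0.119). Pparg changed by -0.27 (SE 0.11, adjusted p = 0.166 in limma). The list's summed level ran from 11.0 to 11.2 with Ad-null and from 11.2 to 11.4 with Ad-Zip8.

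Granulocyte genes, the setting of C/EBP epsilon, were low in both groups. Of 13, 12 had both means below the array medians, 1 rose, against 5.48% of all genes, and 12 did not pass. The gene that rose was Camp, the cathelicidin gene (log2 change 0.60, limma adjusted p = 0.0425; 0.0697 with the replicate block, 0.0538 with arrays quantile normalized again). Its groups overlapped, and it did not pass without Ad-null array 1 or 4 or Ad-Zip8 array 1, 3 or 4 (0.0994 to 0.112), which takes the count to 0. The list's summed level was 7.96 to 8.18 with Ad-null and 8.15 to 8.28 with Ad-Zip8.

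Markers of macrophages, cells that also use C/EBP beta, mostly did not pass, while over all genes 5.48% rose and 5.12% fell. Of 12, Laptm5 was the 1 that fell (1.65-fold), the lysosomal gene Cd68 the 1 that rose (1.78-fold), and 10 did not pass. Both group means of 7 lay below the array medians, those of Adgre1 and Ptprc among them. Other markers lay above the medians in both groups, such as Csf1r (means of 5.30 with Ad-null and 5.22 with Ad-Zip8) and Cx3cr1 (5.91 and 5.89). The log2 summed level of the 12 was 8.79 to 8.83 with Ad-null and 8.87 to 9.05 with Ad-Zip8, and without Cd68 it was 8.38 to 8.53 with Ad-null and 8.22 to 8.36 with Ad-Zip8. The sum of all 12 was thus higher with Ad-Zip8 and that of the other 11 lower (log2 differences of 0.13 and -0.15). The sum without Cd68 was chosen after its values were seen. It leaves out the 1 gene that rose and keeps Laptm5, the 1 that fell (means of 6.14 and 5.42). The lower sum is therefore no sign of a fall shared by the 10 markers that did not pass.

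Ribosome assembly genes, which were listed as co-workers of the CEBPZ protein, gave no call in 11 measured genes (limma; 2 had an unadjusted p under 0.05), with log2 changes between -0.22 and 0.08. Noc2l changed by -0.20 (SE 0.07), with an adjusted p of 0.116 in limma, 0.0471 with dim genes left out and 0.0388 with a variance trend.

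**Figure D4:**
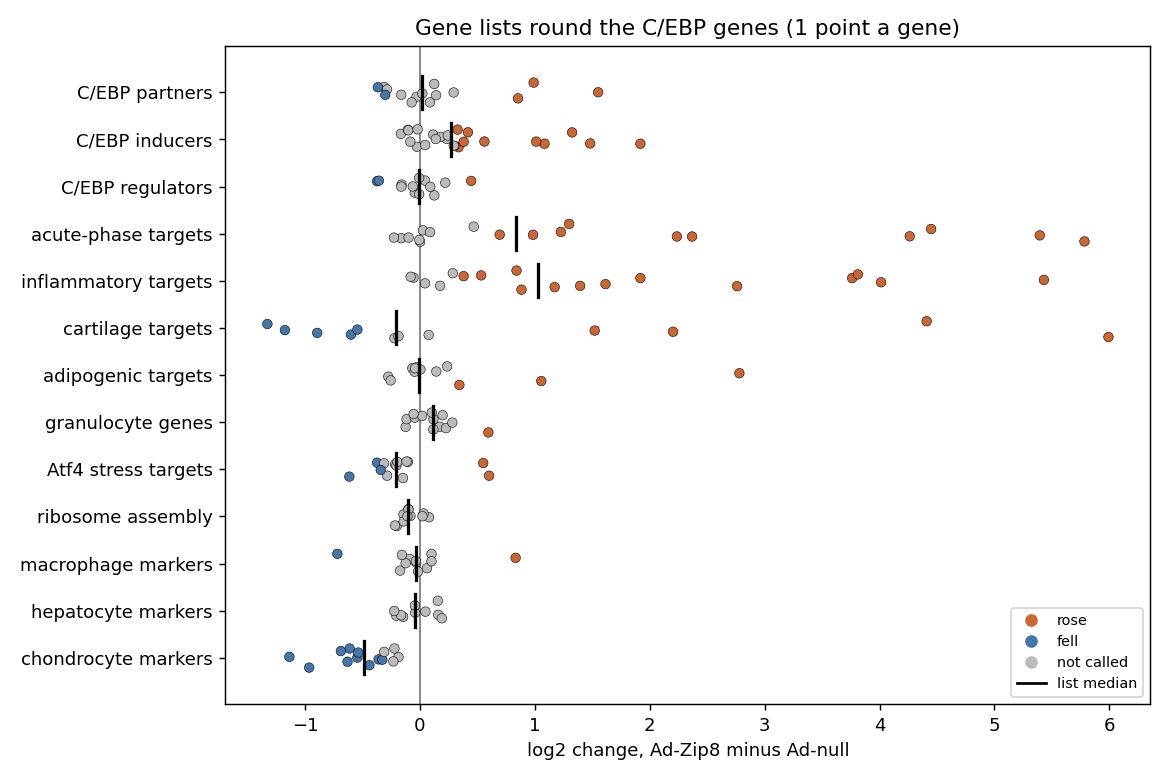
Log2 change of every measured gene, Ad-Zip8 minus Ad-null (x axis), in the 13 gene lists (y axis); orange points rose, blue points fell and grey points did not pass at a limma adjusted p under 0.05, and black bars are list medians. Acute-phase and inflammatory targets spread far to the right, with medians of 0.84 and 1.03, cartilage targets spread to both sides, and hepatocyte and ribosome assembly genes stay near 0.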

How the data were processed

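The deposited log2 values, 1 per probe set and array, are RMA values per the submitters' processing notes. RMA's version, annotation and filters: not given in the sources used here. Of 41345 probe sets, 23521 had 1 gene symbol, 1814 several and 16010 none listed. For each gene the probe set with the highest mean was kept (22180 genes). Groups were compared with limma 3.58.1 in R 4.3.3 (lmFit, eBayes, two-sided, no covariates, no filter), adjusted by Benjamini-Hochberg over all genes at 0.05. No detection calls or scanner output entered, and the number of arrays limits the precision.

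The members and lists were chosen with earlier results of these data known. Named were the members, Slc39a8, 12 preset genes, up to 4 called genes of each list with the smallest adjusted p, and the 3 genes most like each called member; others were named after their values were seen. Replicate numbers were taken to pair arrays because deviations from group means correlated at 0.11 to 0.37 between same-numbered arrays; this pairing is inferred. On simulated data (22180 genes) the fit recovered 51.5% of 66 changes of 0.5, 89.6% of 67 of 1 and 100% of 67 of 2 on the log2 scale. It made 10 false calls. Far fewer genes were changed there than the 2352 called in the data. Recovery after adjustment depends on that share, so these rates need not hold for the data. Alternatives were a filter on dim genes (mean below 5.09), a variance trend, median centring, repeated quantile normalization, averaged probe sets, the replicate block and leaving out each array.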

Additional observations from a re-analysis of the deposited data

Results flagged for a closer look

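Among 164 groups of 4 arrays (the named genes in each group), 8 held an array far from the other 3 by Dixon's 95% limit on the gap over the group's range. Chance gives about 1 such group in 20. On Ad-Zip8 replicate 1, 3 genes stood high: Ccl2 (gap 0.945 of the range, 10.7 against 9.72 to 9.77 on the log2 scale), Cxcl5 (0.918, 11.9 against 11.3 to 11.4) and Fos (0.862, 6.88 against 6.30 to 6.38). On Ad-null replicate 1, Serpina3n (0.841, 10.6 against 10.1 to 10.2) and Col2a1 (0.952, 13.49 against 13.45) stood high. Nfil3 was low on Ad-Zip8 replicate 3 (0.937, 7.66 against 7.91 to 7.93), Cd14 was low on Ad-null replicate 3 (0.890, 5.12 against 5.47 to 5.51), and Chac1 was high on Ad-Zip8 replicate 2 (0.895, 8.69 against 8.52 to 8.54). None of the 5 C/EBP genes had such an array.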

How the results depend on the processing

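Cebpb and Cebpd rose under every alternative run. Cebpa lost its call when certain arrays were left out, with log2 changes of 0.38 to 0.55. The Cebpe change ran from -0.024 to 0.10 with 1 array left out, turning its sign without Ad-null array 1 or Ad-Zip8 array 4. Over all genes 1136 fell, against 721 without Ad-null array 1 and 708 without Ad-Zip8 array 1. The cause of the following shifts in counts was not tested, beyond what each alternative leaves out. With the variance trend, 4 partners fell, 2 regulators rose, and 6 Atf4 targets and 2 ribosome assembly genes fell. Over all genes 6.38% then rose and 7.31% fell, against 5.48% and 5.12% in the main fit. With dim genes left out, 5 Atf4 targets and 2 ribosome assembly genes fell, and 0 granulocyte genes rose, since 1 was then tested. Of all genes tested there, 10.2% rose and 11.9% fell. With repeated quantile normalization 1 regulator fell and 0 granulocyte genes rose. With 1 array left out, 1 to 2 partners, 0 to 2 regulators and 1 to 3 Atf4 targets fell, and 0 to 1 granulocyte genes rose.

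With the replicate block, which pairs same-numbered arrays, the limma adjusted p was 0.0271 for Cebpa, 4.27e-04 for Cebpb and 1.93e-04 for Cebpd, and the calls on C/EBP genes did not change; 0 granulocyte genes rose. Of the 8 gene pairs whose changes differed, 0 passed within array pairs, a test chosen after seeing the data whose smallest p is 0.125 by exact permutation. The change in the macrophage sum went from 0.13 to -0.15 without Cd68, with Laptm5, which fell, still in it. Uncalled genes near 0 turned sign: with 1 array left out Hpx ran from -0.038 to 0.075, Fga from -0.070 to 0.047 and Fgb from -0.060 to 0.074, while Fga was -0.0013 with repeated quantile normalization and Fgb 0.0069 with median centring.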
